A study of Mus musculus with 21 samples.

Results

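Selenocysteine tRNA, the row SeC-TCA-1-1, was the single member described here, 1 of 209 tRNA rows counted in cerebrum and of 208 counted in cerebellum; it was chosen by its name. It was measured in mice with a Polr3a mutation and in wildtype mice, all of the C57BL/6J strain and all given tamoxifen. The enzyme that makes nuclear tRNA, RNA polymerase III, has the Polr3a product as its largest subunit, and in the mutants tamoxifen-induced recombination took place at postnatal day 28. Tissue was frozen at postnatal day 42. QuantM-tRNA-seq, a library method for mature tRNA, gave 21 libraries: 5 mutant and 6 wildtype from cerebellum, 4 mutant and 6 wildtype from cerebrum. The labels name neither the driver nor the cell type of the recombination. They also leave unsaid whether each library is a different mouse, and the p-values therefore rest on library-to-library spread, which may be technical. A tRNA library holds no Polr3a message, so the mutation could not be checked, nor could cell type markers of the tissues.

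The selenocysteine tRNA reads UGA, a codon that otherwise ends translation, in the messages of selenoproteins, where it inserts the selenium-containing amino acid selenocysteine. It is first charged with serine by seryl-tRNA synthetase, and the serine is then converted to selenocysteine on the tRNA. RNA polymerase III transcribes its gene mainly from elements upstream of the start, as it does for U6 small nuclear RNA, whereas other nuclear tRNA genes carry their promoter inside the transcribed sequence. In brain, selenoproteins such as glutathione peroxidases protect neurons from oxidative damage, and mice that lack this tRNA in neurons develop neurodegeneration. Mitochondrial tRNAs are transcribed inside mitochondria by another polymerase, so they and an added bacterial glutamine tRNA, the spike-in, are yardsticks that the mutated enzyme does not make.

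The anticodon letters TCA occurred in 3 rows, SeC-TCA-1-1, the row Sup-TCA-1-1 and the mitochondrial tryptophan tRNA Trp-TCA-MT, which reads UGA as tryptophan. Trp-TCA-MT (gene mt-Tw) lies on the plus strand of mm10 chromosome M, at chrM:4950-5016. Its sequence, from the GENCODE annotation of that build, is shown because it is the other abundant TCA row and comes from another polymerase, with the anticodon in capitals at bases 32 to 34:
Trp-TCA-MT: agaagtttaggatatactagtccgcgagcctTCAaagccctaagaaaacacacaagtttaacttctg
Sup-TCA-1-1 held 3 to 22 counts per cerebellum library and 20 to 78 per cerebrum library, so nearly all nuclear TCA counts belonged to the selenocysteine tRNA.

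Libraries held 1628057 to 7158467 counts in cerebellum and 4365247 to 7614658 in cerebrum. Cerebellum libraries fell into shallow and deep classes on either side of 3000000 counts: 1 mutant (library 1) and 5 wildtype libraries were shallow, and 4 mutants and 1 wildtype library (library 5) were deep. SeC-TCA-1-1 itself held 2908 to 14366 counts in cerebellum mutants, 2241 to 8832 in cerebellum wildtype, 11776 to 17410 in cerebrum mutants and 7723 to 13455 in cerebrum wildtype, so counting error was small beside the spread between libraries. The mitochondrial share of tRNA counts was 17.2% ± 3.005 in mutants and 13.4% ± 0.700 in wildtype cerebellum (SD, n = 5 and 6), and 14.3% ± 1.19 in mutants and 11.2% ± 0.445 in wildtype cerebrum (SD, n = 4 and 6).

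Within the nuclear tRNA pool, the selenocysteine tRNA did not differ between genotypes beyond the spread of libraries in either tissue. In cerebellum mutants it made 17.2, 16.2, 14.7, 16.4 and 25.1 counts per 10000 counts of all other nuclear tRNAs in libraries 1 to 5, against 16.3 to 22.9 with a median of 22.2 in wildtype. Mutants 1 to 4 lay below 5 of the 6 wildtype libraries, while mutant 5 lay above all wildtype libraries, so the groups overlapped. In mutant 5 the selenocysteine tRNA held 0.250% of nuclear counts (95% Wilson interval 0.246 to 0.254, counting error only), against 0.147% to 0.172% in the other mutants. The log2 difference, mutant minus wildtype, was −0.24 ± 0.16 (SE; exact two-sided permutation p = 0.147, adjusted p = 0.221 over 6 genotype tests).

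In cerebrum the same ratio lay on the other side. Mutants had 26.4, 22.1, 29.0 and 28.1 counts per 10000 other nuclear counts, against 19.7 to 28.6 with a median of 22.6 in wildtype. Mutants 1, 3 and 4 lay above 4 of the 6 wildtype libraries, but wildtype 5 and 6, at 27.0 and 28.6, lay among them. The log2 difference was 0.17 ± 0.12 (SE; exact permutation p = 0.248, adjusted p = 0.286).

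Against the mitochondrial tRNAs the selenocysteine tRNA had lower means in mutants of both tissues, and the differences did not pass after adjustment in this test. In cerebellum mutants it made 6.40, 9.15, 9.05, 8.39 and 10.5 counts per 1000 mitochondrial counts, against 9.66 to 15.9 with a median of 14.4 in wildtype. The 4 lowest mutants lay below every wildtype library, and mutant 5 lay above wildtype 2 alone. The log2 difference was −0.64 ± 0.16 (SE; exact permutation p = 0.00866, adjusted p = 0.0519); without wildtype 2, the library with the lowest wildtype value, it was −0.74 with adjusted p = 0.0476 by the same permutation test, and with any other single library left out it did not pass (exact permutation adjusted p = 0.0571 to 0.114). Bulk tissue cannot tell fewer cells of a type from less RNA per cell.

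In cerebrum mutants the ratio was 17.9, 13.5, 15.6 and 16.2 counts per 1000 mitochondrial counts, against 16.5 to 21.6 with a median of 17.6 in wildtype. Mutants 2, 3 and 4 lay below all wildtype libraries and mutant 1 lay within their range. The log2 difference was −0.23 ± 0.11 (SE; exact permutation p = 0.0571, adjusted p = 0.114).

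Against the spike-in, whose amount per library no source states and which is taken as equal, the direction was also down. Cerebellum mutants had 13.99, 12.5, 16.6, 14.3 and 29.8 counts per 100 spike-in counts, against 14.6 to 48.8 with a median of 32.2 in wildtype. Mutants 1, 2 and 4 lay below every wildtype library, and mutants 3 and 5 lay within the wildtype range. The log2 difference was −0.81 ± 0.33 (SE; exact permutation p = 0.0433, adjusted p = 0.114), and −1.01 with adjusted p = 0.0476 without wildtype 2 (exact permutation). With any other single library left out it did not pass (exact permutation adjusted p = 0.0571 to 0.171).

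Cerebrum mutants had 67.6, 57.6, 65.0 and 86.7 counts per 100 spike-in counts, against 64.3 to 96.6 with a median of 80.3 in wildtype. These groups overlapped widely, and the log2 difference was −0.19 ± 0.16 (SE; exact permutation p = 0.286, adjusted p = 0.286).

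**Figure D1:**
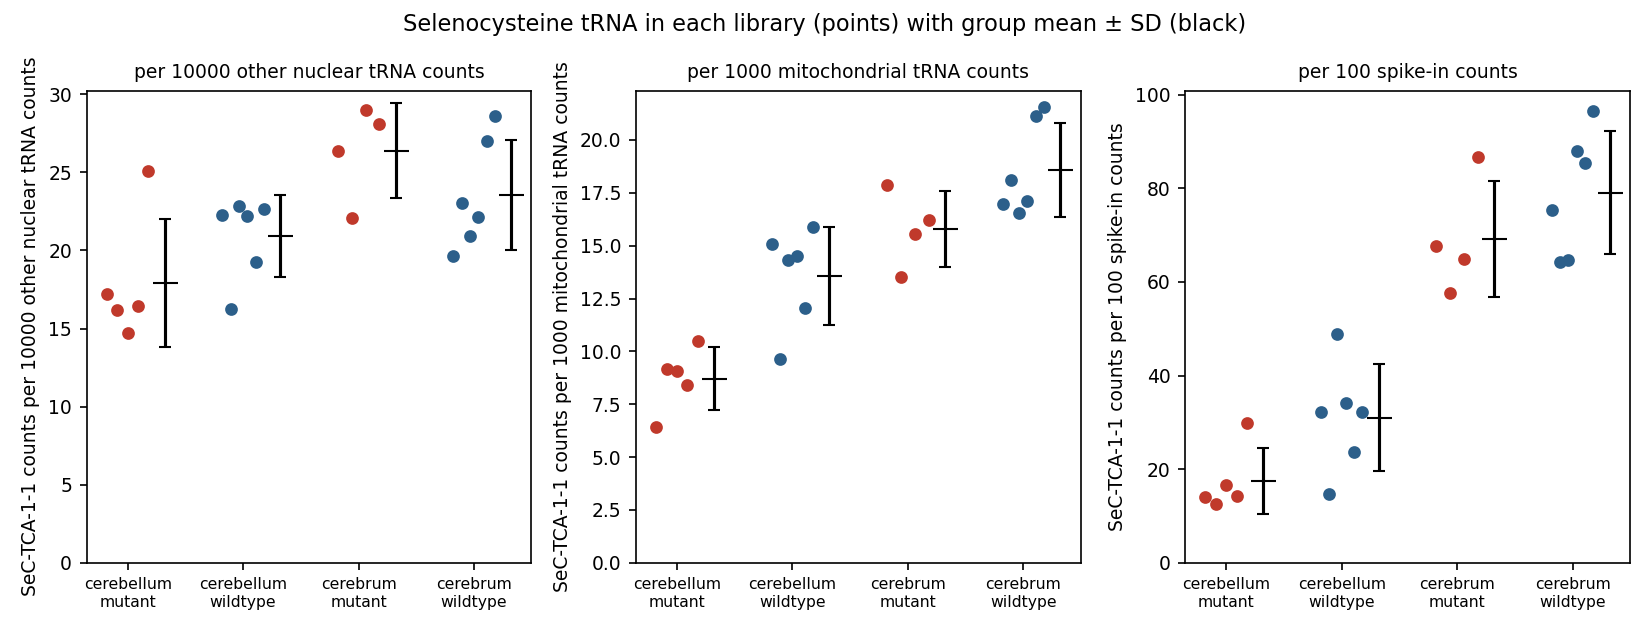
SeC-TCA-1-1 counts in each library (points; red mutant, blue wildtype) per 10000 other nuclear counts, per 1000 mitochondrial counts and per 100 spike-in counts (vertical axes from 0), with the mean ± SD of each group in black. In cerebellum, mutant 5 stands above the other mutants at 25.1 per 10000 nuclear counts, and the cerebellum groups lie lowest in all panels.

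Within cerebellum depth classes the direction was down on each yardstick. The shallow mutant differed from 5 shallow wildtype libraries by −0.29 on the log2 scale against nuclear counts, −1.10 against mitochondrial counts and −1.11 against the spike-in. The 4 deep mutants differed from the single deep wildtype library by −0.12, −0.38 and −0.46 on the same yardsticks. Permuting labels within classes gave exact p = 0.400, 0.0667 and 0.200 for the mean of both classes; 0.0667 is the smallest that these classes allow.

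A fit across all tRNAs gave the same picture. With TMM scaling, which holds the bulk of tRNAs constant, SeC-TCA-1-1 averaged 1499 ± 363 CPM (counts scaled to library size) in cerebellum mutants and 1797 ± 266 CPM in cerebellum wildtype (SD, n = 5 and 6), a log2 fold change of −0.26 with a 95% interval of −0.59 to 0.06 (edgeR adjusted p = 0.362). In cerebrum it averaged 2301 ± 334 CPM in mutants and 2062 ± 299.7 CPM in wildtype (SD, n = 4 and 6), a log2 fold change of 0.16 with an interval of −0.12 to 0.43 (edgeR adjusted p = 0.427). Of all tRNAs tested 2.48% passed in cerebellum and 19.7% in cerebrum. Both intervals include 0 and values well away from it, so neither shows that the level was the same in mutants and wildtype.

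The cerebellum call in the TMM fit turned on mutant 5. Without it the log2 fold change with TMM was −0.40 and passed (edgeR adjusted p = 0.0348), and without both mutant 1, whose mitochondrial share of 21.2% was the highest of all libraries, and mutant 5 it was −0.41 (edgeR adjusted p = 0.0448). The permutation tests without mutant 5 gave −0.37 against nuclear counts, −0.71 against mitochondrial counts and −1.03 against the spike-in, and did not pass (exact permutation adjusted p = 0.0571 each). Against mitochondrial counts the 4 remaining mutants all lay below every wildtype library. The unadjusted p there was therefore the smallest that 210 splits allow, and that test could not have given a lower one.

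Among nuclear rows sorted by log2 fold change from the lowest, the selenocysteine tRNA stood at position 34 of 180 in cerebellum and at 155 of 186 in cerebrum. The median nuclear row was at −0.06 in cerebellum and −0.07 in cerebrum. It therefore lay on the lower side of the nuclear pool in cerebellum and on the upper side in cerebrum, with no call in either tissue.

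With each library scaled to its mitochondrial total, the level in cerebellum fell by 0.64 on the log2 scale, with an interval of −0.99 to −0.29 (edgeR adjusted p = 0.0129). On that scale 26.2% of all cerebellum tRNAs passed, all of them lower, and the median nuclear row was at −0.40. Scaled to the spike-in, the cerebellum level fell by 0.83, with an interval of −1.36 to −0.29 (edgeR adjusted p = 0.0166), where 41.1% of all tRNAs passed and the median nuclear row was at −0.60. In cerebrum the log2 fold change turned to −0.23 with mitochondrial scaling (edgeR adjusted p = 0.140) and to −0.19 with the spike-in (edgeR adjusted p = 0.459), and did not pass. There 53.4% of tRNAs passed with mitochondrial scaling and 35.6% with the spike-in, and the median nuclear row was at −0.46 and −0.42 on these scales. On the spike-in scale the median mitochondrial row was at −0.20 in cerebellum and 0.08 in cerebrum.

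**Figure D2:**
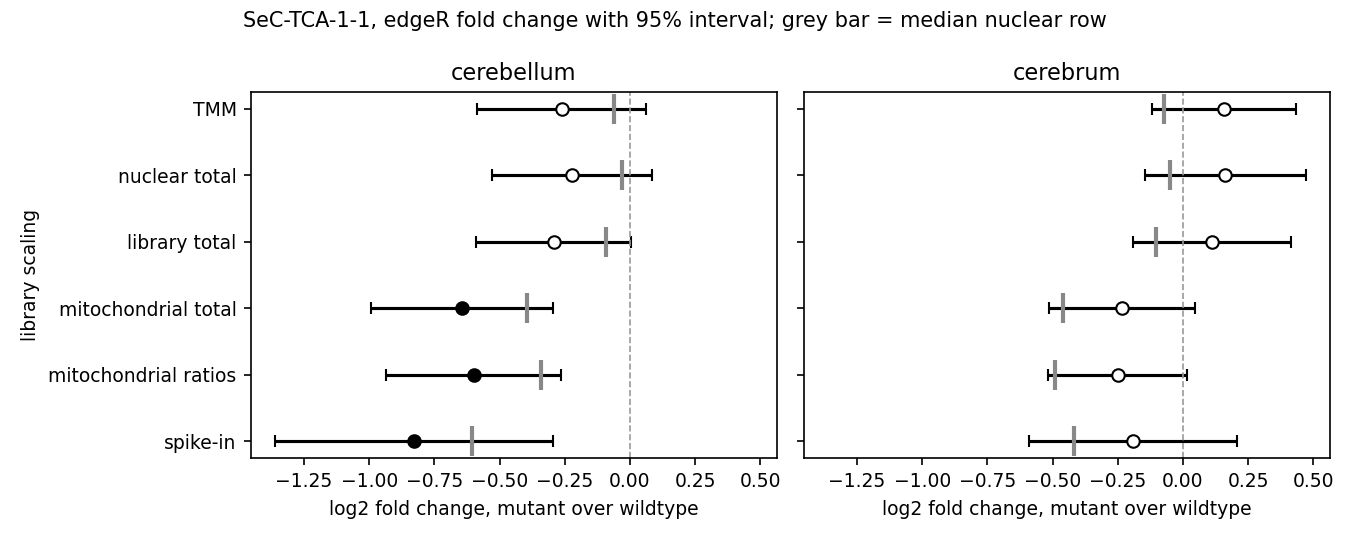
Log2 fold change of SeC-TCA-1-1, mutant over wildtype (horizontal axis), with its 95% interval from edgeR under 6 library scalings (rows), in cerebellum (left) and cerebrum (right); filled points passed at adjusted p under 0.05 and grey bars mark the median nuclear row. The point lies left of the nuclear median in cerebellum and right of it in cerebrum under each of the 6 scalings, for example −0.26 beside −0.06 and 0.16 beside −0.07 with TMM. A scaling shifts all rows of a library alike, so the 6 are not independent views of this.

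In the authors' deposited table per tRNA for cerebellum, SeC-TCA-1-1 has a log2 fold change of −0.61 with adjusted p = 0.00334. In the authors' deposited tables for cerebrum the same row has 0.24 per tRNA and −0.24 per anticodon, with adjusted p = 0.107 and 0.111. Only 3 of the 210 rows of the authors' deposited per-tRNA table for cerebrum have the sign that mutant over wildtype gives from the counts, so that table runs wildtype over mutant. Mean levels in the authors' deposited per-tRNA tables matched counts scaled by the median of ratios over mitochondrial rows within 0.186% in cerebellum and 0.448% in cerebrum, against differences of up to 5.85% and 9.14% with size factors over all rows. Scaled that way here, the row was at −0.60 in cerebellum (edgeR adjusted p = 0.0200) and −0.25 in cerebrum (edgeR adjusted p = 0.0973).

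Whether the genotypes differed more in one tissue than in the other was tested in one fit of all 21 libraries. The genotype effect in cerebellum minus that in cerebrum was −0.44 on the log2 scale, with an interval of −0.87 to −0.01 (edgeR adjusted p = 0.315, and 0.0463 before adjustment). Of all tRNAs 4.9% passed in this contrast, each of the 10 being higher. Without cerebellum mutant 5 the difference was −0.59 and passed (edgeR adjusted p = 0.0425). The main fit took all 21 libraries as independent. The labels do not say whether same-numbered libraries of both tissues share a mouse. Their sex was the same in 10 of 10 pairs, but they did not deviate together throughout. With these libraries paired as a block the difference was −0.58 and passed (edgeR adjusted p = 0.0305). Cerebellum mutant 5 has no same-numbered cerebrum library, so it added nothing to that paired value. Leaving this library out without pairing had already given −0.59 and a pass. The part of the pairing in the call was not tested apart from that loss. The sign was negative under all the scalings, tools and left-out libraries that were run.

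The cerebellum had less selenocysteine tRNA than the cerebrum, in mutants on all 3 yardsticks and in wildtype on 2 of them. Against the spike-in most other tRNAs were lower in cerebellum as well. The mitochondrial yardstick itself differed, its mean share of tRNA counts in wildtype being 13.4% in cerebellum and 11.2% in cerebrum. With edgeR on the mitochondrial total, 71 of 204 tRNAs were lower and 69 higher in wildtype cerebellum, and 67 lower and 76 higher in mutants. The lowest group mean on each yardstick was that of cerebellum mutants, followed by cerebellum wildtype. Per 10000 other nuclear counts the means ran from 17.9 ± 4.11 in cerebellum mutants through 20.9 ± 2.63 in cerebellum wildtype and 23.6 ± 3.51 in cerebrum wildtype to 26.4 ± 3.06 in cerebrum mutants (SD, n = 5, 6, 6 and 4), and no group differed from its neighbour in this order beyond the spread. Per 1000 mitochondrial counts the order was 8.69 ± 1.49 in cerebellum mutants, 13.6 ± 2.31 in cerebellum wildtype, 15.8 ± 1.80 in cerebrum mutants and 18.6 ± 2.22 in cerebrum wildtype. On that yardstick cerebellum wildtype and cerebrum mutants overlapped, and their difference was not tested. Per 100 spike-in counts the order was 17.4 ± 7.08 in cerebellum mutants, 31.0 ± 11.4 in cerebellum wildtype, 69.2 ± 12.4 in cerebrum mutants and 79.0 ± 13.2 in cerebrum wildtype (SD), and each cerebellum library lay below each cerebrum library.

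The permutation tests between tissues took all libraries as independent and did not pair them by number. In mutants the tissue difference passed on all 3 yardsticks. The log2 difference, cerebellum minus cerebrum, was −0.58 ± 0.16 against nuclear counts (SE; exact permutation p = 0.0317, adjusted p = 0.0381 over 6 tissue tests), with 4 of 5 cerebellum libraries below every cerebrum library. It was −0.87 ± 0.14 against mitochondrial counts and −2.05 ± 0.25 against the spike-in, all 5 cerebellum libraries being below all cerebrum libraries (exact permutation p = 0.0159 each, the smallest that 126 splits allow; adjusted p = 0.0238). Against nuclear counts the call was lost when any 1 of 7 of these 9 libraries was left out, cerebrum mutant 2 and cerebellum mutant 5 being the exceptions (exact permutation adjusted p up to 0.0857). Against mitochondrial counts and the spike-in it was lost without cerebrum mutant 1, 3 or 4 (exact permutation adjusted p = 0.0536 each), where fewer splits raise the smallest p.

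In wildtype the difference was −0.46 ± 0.13 against mitochondrial counts and −1.43 ± 0.26 against the spike-in, with all 6 cerebellum libraries below all cerebrum libraries (SE; exact permutation p = 0.00216 each, the smallest that 924 splits allow; adjusted p = 0.00649). Against nuclear counts it was −0.17 ± 0.12 and did not pass (exact permutation p = 0.193, adjusted p = 0.193). The spike-in share of all counts was 0.401% to 1.08% in cerebellum and 0.222% to 0.374% in cerebrum, and the part of unequal addition in the spike-in values was not tested. With edgeR on the spike-in scale, 138 of 204 tRNAs were lower and 6 higher in wildtype cerebellum. In mutants 141 were lower and 9 higher. The median row was at −0.99 in wildtype and −1.09 in mutants, beside −1.35 and −1.99 for SeC-TCA-1-1, so much of that difference was shared by the pool.

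The fit of all tRNAs with TMM gave −0.94 in mutants (95% interval −1.27 to −0.61, edgeR adjusted p = 9.52e-06) and −0.50 in wildtype (−0.78 to −0.22, edgeR adjusted p = 0.00203). Most tRNAs differed between the tissues on that scale, 72.5% in mutants and 71.1% in wildtype, so a call is close to what any row had. The value depended on how the pool was summed. In wildtype it was −0.17 with the nuclear total as the library size (edgeR adjusted p = 0.259), on which scale the median nuclear row stood at 0.26. Against the geometric mean of nuclear rows, which gives each row the same weight, the wildtype value was −0.49 (exact permutation adjusted p = 0.00433). In mutants the value was −0.56 with the nuclear total and −1.01 against the geometric mean, and passed with both.

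The serine tRNAs, charged by the same synthetase, held 14 nuclear rows in each table. In cerebellum 1 rose and 1 fell in mutants, with a median log2 fold change of −0.10, beside 1 higher and 4 lower among all 202 rows and a median of −0.03. The serine row that rose was Ser-CGA-3-1, at 0.71 ± 0.14 (SE, edgeR adjusted p = 0.0145), and the one that fell was Ser-AGA-2, at −0.58 ± 0.14 (SE, edgeR adjusted p = 0.0335). In cerebrum 1 serine row fell and 0 rose, with a median of −0.19, beside 17 higher and 24 lower among all 208 rows and a median of −0.03. That row was Ser-GCT-1-1, at −1.03 ± 0.20 (SE, edgeR adjusted p = 0.000653).

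The serine rows with the most counts of their anticodons otherwise did not pass. Ser-TGA-1-1 was at −0.15 in cerebellum and −0.27 in cerebrum, Ser-GCT-3-1 at −0.05 and 0.07, Ser-CGA-2-1 at −0.08 and −0.20, and Ser-GGA-1-1 at −0.00 and −0.39. Scaled to the mitochondrial total, 2 of 14 serine rows fell in cerebellum, beside 53 of all 202 rows, and 11 of 14 in cerebrum, beside 111 of all 208 rows. Between tissues with TMM, 9 serine rows were lower and 1 higher in cerebellum than in cerebrum of mutants, with a median of −0.74, and 10 were lower in wildtype, with a median of −0.63; among all 204 rows 75 were lower and 73 higher in mutants, with a median of −0.01, and 77 were lower and 68 higher in wildtype, with a median of −0.05.

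Serine and leucine tRNAs share with the selenocysteine tRNA a long variable arm. Of 31 such rows tested in cerebellum 1 rose and 1 fell in mutants, with a median of −0.05, and of 30 tested in cerebrum 0 rose and 4 fell, with a median of −0.09. All rows tested held 1 that rose and 4 that fell of 202 in cerebellum, and 17 and 24 of 208 in cerebrum. Nuclear rows whose names end in a locus number, as that of SeC-TCA-1-1 does, numbered 129 in cerebellum, of which 123 passed the filter on low counts, and 130 in cerebrum, of which 129 passed it. Among these 1 rose and 1 fell in cerebellum, with a median of −0.05, and 1 rose and 19 fell in cerebrum, with a median of −0.17. Over all nuclear rows 1 rose and 4 fell of 180 in cerebellum, and 2 rose and 24 fell of 186 in cerebrum, shares near those of the list in cerebrum. The selenocysteine tRNA lay above that median in cerebrum and below it in cerebellum.

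The initiator methionine tRNAs, which start translation, held 3 rows in each tissue, and like the selenocysteine tRNA they did not pass with TMM. On that log2 scale iMet-CAT-1 was at −0.27 in cerebellum and 0.17 in cerebrum, iMet-CAT-2-1 at −0.15 and 0.16, and iMet-CAT-3-1 at −0.14 and 0.19. On the mitochondrial scale 1 of these 3 rows fell in cerebellum, where 26.2% of all rows did, and 0 in cerebrum, where 53.4% did. With TMM 0 of 22 mitochondrial rows passed in cerebellum by edgeR (15 at an unadjusted p under 0.05, 7 by DESeq2 and 1 by limma-voom), with a median of 0.34, and 15 of 22 rose in cerebrum, with a median of 0.42. Trp-TCA-MT was at 0.52 ± 0.17 in cerebellum (SE, edgeR adjusted p = 0.1002) and rose by 0.48 ± 0.15 in cerebrum (SE, edgeR adjusted p = 0.0296). The remaining TCA row, Sup-TCA-1-1, was at −0.50 ± 0.31 in cerebrum (SE, edgeR adjusted p = 0.284) and its cerebellum counts were too low to be tested.

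**Figure D3:**
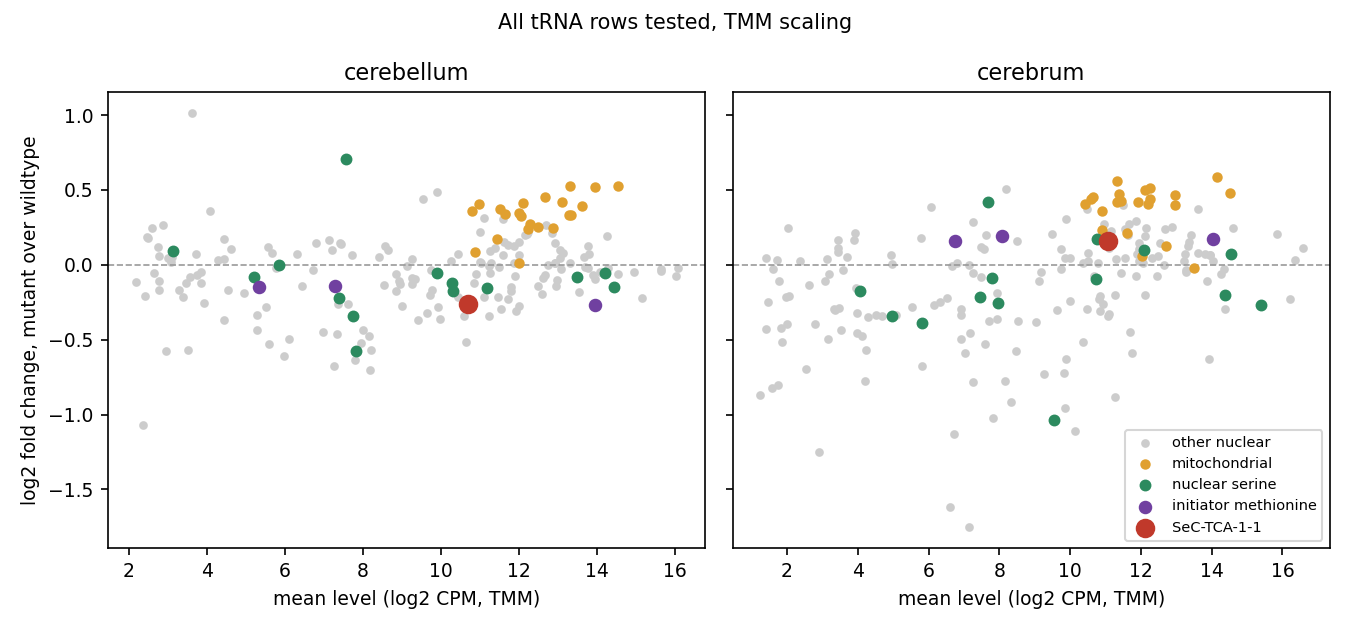
Log2 fold change, mutant over wildtype (vertical axis), of each tRNA row tested against its mean level in log2 CPM (horizontal axis), TMM scaling, in cerebellum (left) and cerebrum (right). SeC-TCA-1-1 (red) lies at −0.26 in cerebellum and 0.16 in cerebrum; the initiator methionine rows (purple) lie at other mean levels, and the mitochondrial rows (orange) have medians of 0.34 and 0.42.

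Over all libraries iMet-CAT-1 had the pattern most like that of the selenocysteine tRNA. Pearson's r of log2 CPM, after the mean of each tissue was removed, was 0.84 over 21 libraries (Spearman's rho 0.88), the highest among 203 rows, whose median r was 0.03. Next were Arg-TCT-1-1 (0.83), Lys-CTT-2 (0.82), iMet-CAT-3-1 (0.75) and Glu-CTC-1 (0.71). Taken alone, the 11 cerebellum libraries gave 0.89 for iMet-CAT-1 and the 10 cerebrum libraries 0.79, where several rows were higher, among them Ser-CGA-1-1 at 0.92 (named after its value was seen) and Arg-TCT-1-1 at 0.89. Without the 2 libraries farthest from the median, cerebrum mutant 1 and cerebellum mutant 5, r for iMet-CAT-1 was 0.81, and with group means removed it was 0.80, as for Lys-CTT-2. The values share each library's depth and TMM factor, so they are descriptions with no test.

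The 3 least alike rows were 2 methionine rows and 1 tyrosine row. Met-CAT-3-1 had r = −0.77 (rho −0.71), Met-CAT-6-1 −0.66 and the tyrosine row Tyr-GTA-1 −0.65, and without the same 2 libraries these were −0.65, −0.46 and −0.58. In cerebellum mutant 5 the selenocysteine tRNA lay 0.38 above the cerebellum mean on the log2 scale, iMet-CAT-1 0.50 above it, iMet-CAT-3-1 0.94 above it, and Met-CAT-3-1 at −0.60. In cerebrum mutant 1 the selenocysteine tRNA lay 0.44 above the cerebrum mean, Lys-CTT-2 0.79 above it and Met-CAT-3-1 at −0.64. The rows given here were named for their r over these same libraries, on which these 2 weigh heavily. Their shifts in the 2 libraries follow in part from that choice and are description only.

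**Figure D4:**
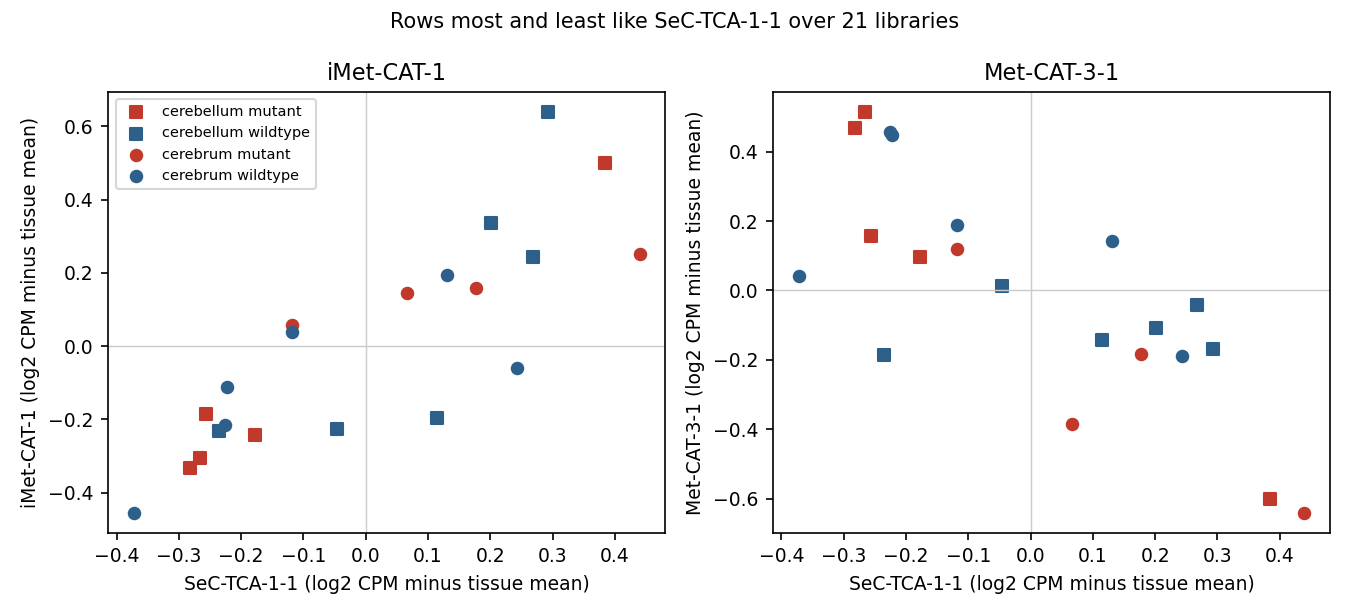
Log2 CPM of iMet-CAT-1 (left) and Met-CAT-3-1 (right) against that of SeC-TCA-1-1, each minus its tissue mean, in 21 libraries (squares cerebellum, circles cerebrum; red mutant, blue wildtype). Points rise together for iMet-CAT-1 (r = 0.84) and run in opposite directions for Met-CAT-3-1 over all libraries (r = −0.77), a run that the 6 cerebellum wildtype libraries alone do not show.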

How the data were processed

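The authors deposited raw read counts per tRNA, one table per tissue. The build was mm10 and the tools named are DESeq2, featureCounts, Bowtie2 and cutadapt, per the submitters' processing notes; no source states versions, settings or how reads that fit several tRNAs were assigned. The authors' deposited result tables hold a mean signal (counts over size factors), log2 fold changes, a test score and p-values, per the file headers.

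The spike-in row was not among the tRNAs tested and was kept out of the TMM library sizes. It served only as the library size on the spike-in scale and as the denominator of the spike-in ratios. Tests across tRNAs used edgeR 4.0.16 and limma 3.58.1 in R 4.3.3 (TMM, filterByExpr with a minimum count of 10, robust quasi-likelihood F tests, Benjamini-Hochberg, threshold 0.05), within each tissue; contrasts between tissues were fitted on 21 libraries and the 204 tRNAs shared by the tables. Ratios were compared by exact two-sided permutation, the smaller tail doubled, adjusted over 6 genotype or 6 tissue tests. Likeness used log2 CPM with a prior count of 1; the 5 rows most and 3 least alike were named, beside initiator, serine and TCA rows. The TCA rows were added after their values were seen.

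The member, lists and alternatives were chosen with earlier results of these data known. Steps were tested on simulated data. Lowest chi-square per degree of freedom between replicates was 44.3, so no pair agreed within sampling noise. DESeq2 1.42.0, limma-voom, other scalings, filters, sex, depth class, left-out libraries and a replicate block were alternatives; scaling by mitochondrial ratios was chosen after seeing the data. The sequence and position of the selenocysteine tRNA gene were not used here.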

Additional observations from a re-analysis of the deposited data

Results flagged for a closer look

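Cerebellum mutant 5 stood far above the other 4 mutants of its tissue for the selenocysteine tRNA on 3 of the measures. It had 25.1 counts per 10000 other nuclear counts, against a next highest value of 17.2, and 29.8 counts per 100 spike-in counts, against 16.6. With TMM scaling it had 2140.0 CPM, against 1416 CPM. In each case its gap to the nearest mutant, divided by the range of the group, passed Dixon's critical value of 0.71, at 0.759, 0.765 and 0.808. Per 1000 mitochondrial counts, where it had 10.5, it was not far enough from the others to be flagged. Among 16 sets of values, 4 measures in 4 groups, chance flags about 1 in 20. Its mitochondrial share was 19.3%, and its depth of 7158467 counts was the highest of the cerebellum libraries; their part in its level was not tested.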

How the results depend on the processing

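Of 293 values under an alternative, 264 kept their direction and their side of the threshold. In cerebrum the genotype effect lay below 0 with the mitochondrial total (−0.23), mitochondrial ratios (−0.25) and the spike-in (−0.19), since these hold other tRNAs constant. In cerebellum it passed with these scalings (−0.64, −0.60 and −0.83) and without mutants 1 and 5 (−0.41), and leaving out each library gave −0.40 to −0.20. The difference of effects between tissues passed without mutants 1 and 5 (−0.61) and ran from −0.59 to −0.35 with each library left out. The wildtype tissue difference did not pass with library totals (−0.21) or the nuclear total (−0.17), and against nuclear counts it passed with the geometric mean (−0.49). With each library left out, cerebellum genotype differences ran from −0.74 to −0.54 per mitochondrial and −1.03 to −0.66 per spike-in count. Tissue differences in mutants ran from −0.71 to −0.51 per nuclear, −0.94 to −0.77 per mitochondrial and −2.26 to −1.93 per spike-in count, where fewer splits raise the smallest p.

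Same-numbered libraries did not deviate together throughout: r was over 0.1 in 2 of 5 genotype pairs in cerebellum, 2 of 4 in cerebrum, and 1 of 4 mutant and 4 of 6 wildtype tissue pairs. The labels do not say that numbers mark mice, though sex was the same in 10 of 10 same-numbered cerebellum and cerebrum libraries. Within a tissue the replicate block paired mutant and wildtype libraries by number alone, which are different mice and in some pairs of different sex. The genotype effect was then −0.25 in cerebellum and 0.28 in cerebrum (edgeR adjusted p = 0.571 and 0.0784). Cerebellum wildtype 6 and cerebrum wildtype 5 and 6 have no mutant of the same number, so they added nothing to these values. Leaving out cerebrum wildtype 5 or 6 alone, without a block, gave 0.22 and 0.23. The parts of the block and of these lost libraries were not tested apart. Calls moved from 41 to 65 tRNAs in cerebrum. Across tissues the block paired same-numbered libraries of the same genotype, and cerebellum mutant 5, which has no cerebrum partner, added nothing to the values. The difference of genotype effects was then −0.58 (edgeR adjusted p = 0.0305), with calls moving from 10 to 28 tRNAs. Tissue differences were −1.08 in mutants and −0.50 in wildtype. Other tools, filters and sex changed no call of the selenocysteine tRNA.

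The number of all tRNAs called in cerebellum, 5 with TMM, was 23 with DESeq2, 16 in the joint fit, 9 with library totals, limma-voom or no filter, 8 with a mean count of at least 50, 30 with mitochondrial ratios, 3 with sex, 2 to 33 with a library left out, and 24 without mutants 1 and 5. With depth class in the edgeR fit it was 0, with 38 tRNAs at an unadjusted p under 0.05. In cerebrum 41 became 117 with mitochondrial ratios and 27 with nuclear rows alone. For the difference between tissues 10 became 16 with DESeq2, 5 with mitochondrial ratios, 21 without cerebellum mutant 5, 27 without mutants 1 and 5, and 0 with the spike-in (edgeR, 14 at an unadjusted p under 0.05).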

Other observations

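By sex, which was not tested, female and male libraries overlapped in all 4 groups. In cerebellum mutants 3 female libraries had 16.2 to 25.1 counts of the selenocysteine tRNA per 10000 other nuclear counts and 2 male libraries 14.7 to 17.2. In cerebrum mutants 2 female libraries had 22.1 and 28.1 and 2 male libraries 26.4 and 29.0.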
